A study of Saccharomyces cerevisiae with 9 samples.

Results

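The 10 genes described here carry the mating identity and the pheromone response of haploid budding yeast, and all 10 were measured among 5449 genes. They were taken by name: STE2, STE6, BAR1 and AGA2, which are active in a cells, STE3 and SAG1, which are active in alpha cells, and AGA1, GPA1, STE4 and STE18, which serve both mating types. Each was represented by its brightest probe set, and each had 1. The LOS1 deletion of BY4742 (3 cultures, numbered 7 to 9), whose array titles also name URA3, was set against BY4742 wild type (6 cultures, numbered 1 to 6). LOS1 encodes a nuclear export receptor for tRNA. BY4742 is a haploid alpha strain that lacks working HIS3, LEU2, LYS2 and URA3 genes, so both groups share these lesions except at URA3. Per the labels' protocols, cells were shaken in YEPD, a rich medium with glucose, at 30 °C and harvested at an OD600 of 0.5. The labels describe 3 isolates of each strain and duplicate wild-type cultures, without tying arrays to isolates, so p-values measure the spread between cultures.

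Haploid yeast come in mating types a and alpha. Each type secretes its own peptide pheromone and carries the receptor for the other's. Both receptors act through the same trimeric G protein, whose freed beta and gamma subunits start a MAP kinase cascade that ends in the transcription factor Ste12, growth arrest and cell fusion. In alpha cells, the alpha1 protein switches on the alpha-specific genes and the alpha2 protein, with Mcm1, represses the a-specific genes. In a/alpha diploids, a1 together with alpha2 represses the haploid-specific genes.

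The values are log2 expression per probe set, and RMA, the authors' normalization, leaves each difference relative to the rest of the array. LOS1 read 3.65, 2.76 and 3.18 in deletion cultures 7, 8 and 9, against 10.89 to 11.34 in wild type. URA3 read 10.88, 10.91 and 10.84 in the deletion, against 2.73 to 3.28 in wild type. Both strains therefore match their labels, and an effect of LOS1 cannot be told apart from one of URA3. Of the 5449 genes, 301 passed the threshold of an adjusted p of 0.05 in the limma fit, which is 5.52%, with 143 higher and 158 lower in the deletion. After quantile normalization was repeated over the budding yeast genes, 175 were higher and 126 lower. The count was 170, 126 and 148 without deletion cultures 7, 8 and 9 in turn, 183 without wild-type culture 4 and 478 without wild-type culture 5.

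None of the 10 mating genes passed that threshold in limma, against the 5.52% of all genes that did. STE3 and STE6 had an unadjusted p under 0.05, which is 2 of 10, against 22.0% of all genes. The values of the 2 strains were fully separate in 1 of the 10, STE3, against 12.6% of all genes. The median difference (deletion minus wild type) over the 10 was -0.01 on the log2 scale and ranged from -0.23 for AGA1 to 0.18 for STE2, beside a median of -0.01 over all genes. No interval below is adjusted for the number of genes.

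**Figure D1:**
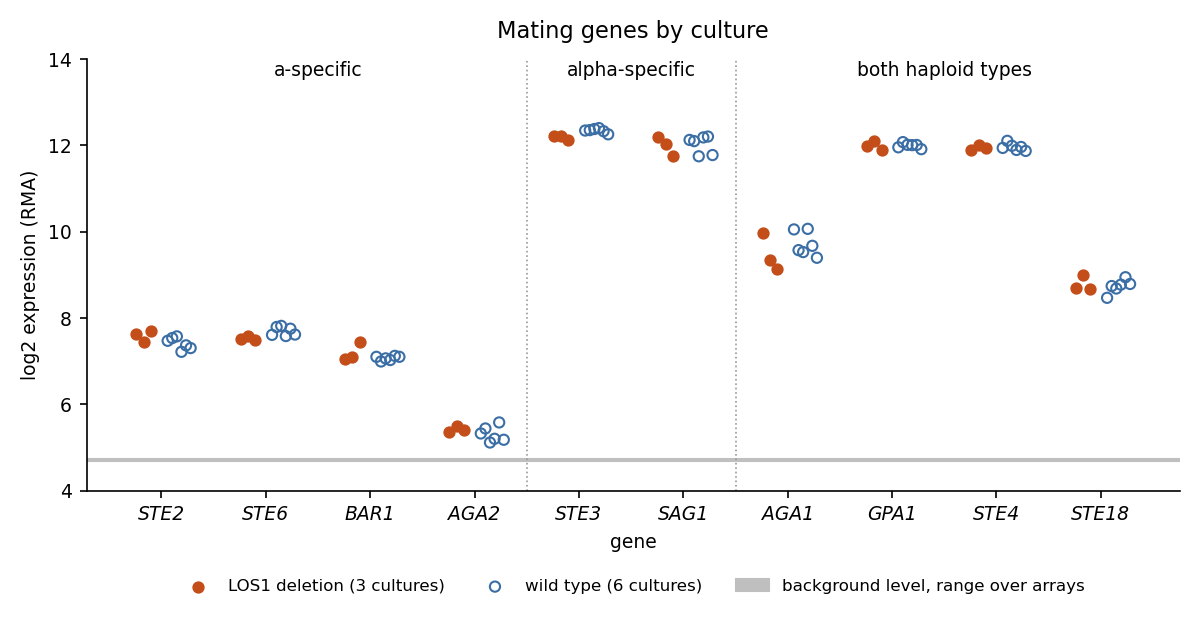
Log2 expression of the 10 mating genes in each culture, with the LOS1 deletion as filled points on the left of each gene and wild type as open points on the right. The grey band is the background level on the 9 arrays, 4.68 to 4.74. Heights of different probe sets are not comparable with each other, but each gene's points lay above the band in both strains, AGA2 by the smallest margin.

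The markers of both mating types were set against the background of the arrays in each strain. The 1746 named probe sets that matched no S. cerevisiae gene were taken as S. pombe, without a check of species. Background was their 95th percentile on each array, which lay at 4.68 to 4.74. All 5 alpha-cell markers (STE3, SAG1, the pheromone genes MF(ALPHA)1 and MF(ALPHA)2, and AFB1) lay 7.06 to 9.23 log2 units above it. The 7 a-cell markers (STE2, STE6, BAR1, AGA2, MFA1, MFA2 and ASG7) lay 0.42 to 3.14 units above it. All 11 markers of haploid cells of either type were 3.79 to 7.43 units above background. The a-cell markers stayed above the 95th percentile on every array, but AGA2, MFA2 and ASG7 did not stay above the 99th. Different probe sets bind with different strength, so the sizes of these margins do not rank the genes, and the a-cell markers were not absent by this measure. In bulk cultures a few cells that express a gene and a low level in all cells cannot be told apart, and cross-hybridisation of these probe sets was not tested.

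The mean level of the 7 a-cell markers was 6.51 to 6.58 in the deletion cultures, against 6.40 to 6.52 in wild type, so the ranges overlapped. Their differences were positive in 6 of 7 genes, against 2467 of 5449 genes in all, and negative in STE6 (-0.17). The median of the 7 was 0.09, beside -0.01 over all genes, and 0 of 7 passed the test. The mean of the 5 alpha-cell markers was 12.73 to 12.92 in the deletion and 12.82 to 13.01 in wild type, with a median difference of -0.03 and 0 of 5 past the test. For the 11 haploid markers the means were 10.75 to 10.84 in the deletion and 10.65 to 10.82 in wild type. Their median difference was 0.06, and 0 of 11 passed the test. The 3 listed markers of a/alpha diploids were IME1, IME2 and IME4. Their means were 7.41 to 7.45 in the deletion and 7.35 to 7.65 in wild type. Of these 3, 2 lay above background on every array. The median difference of the 3 was 0.16, and 0 of 3 passed the test. Beside each of these marker counts, 5.52% of all genes passed.

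The mating-type loci themselves gave a like picture in both strains. HMRA1 (YCR097W), the silent copy of the a1 gene, lay under background on every array, at 2.64, 2.78 and 2.67 in deletion cultures 7, 8 and 9 and at 2.51 to 2.83 in wild type. HMLALPHA1 (YCL066W), whose coding sequence is also that of the active alpha1 gene, read 11.21, 11.35 and 11.33 in the deletion, against 11.06 to 11.45 in wild type. Its difference was 0.05 ± 0.07 (SE, limma adjusted p = 0.733). HMRA2 (YCR096C), which shares its sequence with the end of the alpha2 gene, read 11.62, 11.84 and 11.56 in the deletion and 11.67 to 11.87 in wild type, a difference of -0.06 (adjusted p = 0.653). The probe sets of HMLALPHA1 and HMRA2 may bind several near-identical transcripts, as their type shows, so neither can be assigned to a silent locus. MATALPHA1, MATALPHA2 and HMLALPHA2 were not analysed here.

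Of the 10 genes, a pheromone receptor had the smallest p without passing the test. STE3 (YKL178C), the receptor by which alpha cells sense a-factor, read 12.22, 12.23 and 12.13 in deletion cultures 7, 8 and 9, against a lowest, median and highest value of 12.26, 12.35 and 12.40 in wild type. Each deletion culture lay below each wild-type culture, by a narrow margin to wild-type culture 6. The difference was -0.15 ± 0.04 (SE, n = 3 and 6), a 1.11-fold lower level with a 95% interval of -0.25 to -0.05, and it did not pass the limma test (adjusted p = 0.0757). An exact 2-sided permutation test of this single gene gave p = 0.0119, the smallest value that 3 against 6 cultures allow. That p is not adjusted for the choice of STE3 among the 10, and it follows closely from the separation of the strains. Such separation was met by 12.6% of all genes. The test also takes the cultures as exchangeable, although the labels describe duplicate wild-type cultures.

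STE2 (YFL026W), the alpha-factor receptor of a cells, had a positive difference that did not pass either. It read 7.64, 7.44 and 7.71 in the deletion, against 7.22, 7.42 and 7.57 as the lowest, median and highest wild-type values. Deletion culture 8 lay inside the wild-type range and the other deletion cultures above it. The difference was 0.18 ± 0.09 (SE), with an interval of -0.01 to 0.38 and a limma adjusted p of 0.251.

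None of the genes for exporting or degrading pheromone passed. STE6 (YKL209C), the transporter that exports a-factor from a cells, read 7.51, 7.59 and 7.49 in the deletion, against 7.58, 7.68 and 7.82 as the lowest, median and highest wild-type values. The overlap rested on deletion culture 8, which lay just above wild-type culture 4. The difference was -0.17 ± 0.06 (SE), with an interval of -0.31 to -0.03 and a limma adjusted p of 0.158 (exact permutation p = 0.0357). STE6 lies close to LOS1, with 4 genes between them in the RefSeq gene order of assembly R64. Of these, TRT2 is a tRNA gene with no value here. CBT1, EMC3 and ADD66, named for their position, had differences of 0.14, -0.03 and -0.06, and 0 of the 3 passed (adjusted p = 0.175, 0.759 and 0.468).

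BAR1 (YIL015W), the protease by which a cells degrade alpha-factor, read 7.04, 7.10 and 7.43 in the deletion and 6.99, 7.08 and 7.12 as the lowest, median and highest wild-type values. Culture 9 alone stood above the wild-type range. The difference was 0.12 ± 0.08 (SE), with an interval of -0.05 to 0.30 (limma adjusted p = 0.381), and it was 0.0039 without culture 9.

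None of the pheromone genes passed. The major alpha-factor gene, MF(ALPHA)1 (YPL187W), read 13.85, 13.97 and 13.90 in the deletion and 13.78 to 13.89 in wild type, a difference of 0.08 (adjusted p = 0.335). MF(ALPHA)2 (YGL089C), the minor alpha-factor gene, read 13.33, 13.32 and 12.97 in the deletion and 13.21 to 13.62 in wild type, a difference of -0.23 (adjusted p = 0.222) that was -0.11 without culture 9. With 3 sets of cultures seen in the data (1, 4 and 7, then 2, 5 and 8, then 3, 6 and 9) as a block, it passed (adjusted p = 0.0338). That block fit called 709 of 5449 genes, and sets found in the same data can lower the residual spread. Its call of MF(ALPHA)2 is therefore not independent evidence. AFB1 (YLR040C), another alpha-specific gene, had a difference of 0.01 (adjusted p = 0.961). The a-factor genes MFA1 (YDR461W) and MFA2 (YNL145W) and the a-specific ASG7 (YJL170C) had differences of 0.09, 0.07 and 0.08 (adjusted p = 0.421, 0.586 and 0.635). For MFA2 and ASG7, which lay near background, a difference in transcript would appear smaller than it is.

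**Figure D2:**
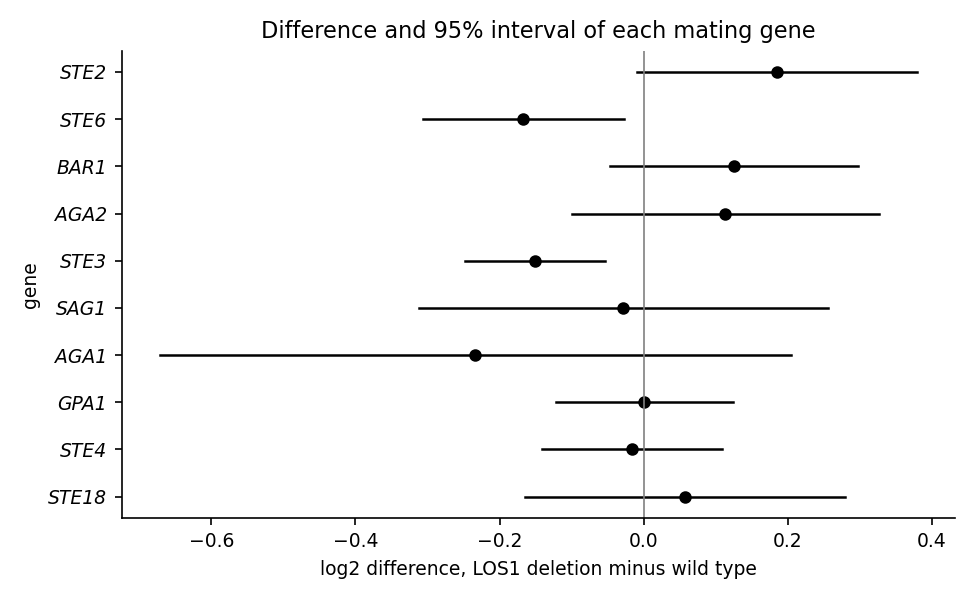
Log2 difference (LOS1 deletion minus wild type) of each mating gene with its 95% interval from the limma fit, 3 against 6 cultures. Only the intervals of STE3 (-0.25 to -0.05) and STE6 (-0.31 to -0.03) leave out 0, and neither gene passed after adjustment over all genes. AGA1 has the widest interval, -0.67 to 0.20.

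The agglutinins, by which cells of opposite type stick together, had the 3 largest SDs of the 10 genes among wild-type cultures, and none passed. SAG1 (YJR004C), the alpha-agglutinin, read 12.21, 12.02 and 11.76 in deletion cultures 7, 8 and 9, against 11.75, 12.11 and 12.20 as the lowest, median and highest wild-type values. Cultures 3, 6 and 9 read 11.75, 11.78 and 11.76, and all other cultures lay between 12.02 and 12.21, so the strains overlapped fully. The difference was -0.03 ± 0.13 (SE), with an interval of -0.31 to 0.26 (limma adjusted p = 0.922).

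AGA1 (YNR044W), the cell-wall anchor of a-agglutinin, which both types make, read 9.97, 9.33 and 9.14 in the deletion, against 9.40, 9.62 and 10.07 as the lowest, median and highest wild-type values. It had the largest SD of the 10 genes in both strains, 0.44 in the deletion (n = 3) and 0.28 in wild type (n = 6). Cultures 1 and 4 read 10.05 and 10.07 and deletion culture 7 read 9.97, while no other culture exceeded 9.67. The difference was -0.23 ± 0.20 (SE), with an interval of -0.67 to 0.20 (limma adjusted p = 0.527). It was -0.48 without culture 7 and -0.06 without culture 9. AGA2 (YGL032C) is the binding subunit of a-agglutinin in a cells. It read 5.36, 5.50 and 5.40 in the deletion and 5.11, 5.26 and 5.58 as the lowest, median and highest wild-type values. The difference was 0.11 ± 0.10 (SE), with an interval of -0.10 to 0.33 (limma adjusted p = 0.528). AGA2 lay near background, as MFA2 and ASG7 did, where a difference in transcript would appear smaller than it is.

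These patterns by culture number were not limited to the agglutinins. Over 5348 genes above background, deviations from the strain mean were positively correlated within each of 3 sets of cultures (1, 4 and 7, then 2, 5 and 8, then 3, 6 and 9), with r between 0.11 and 0.59 in the 9 pairs. Between sets r lay between -0.59 and 0.09 in the 27 pairs. These correlations are across genes, which are not independent replicates, and deviations from a shared mean are negatively correlated by construction. The labels name no such sets, so the comparison within them was added after the data were seen. Within the 3 sets, in the order above, STE3 differed by -0.15, -0.12 and -0.19 and AGA1 by -0.09, -0.29 and -0.32 (deletion minus the mean of both wild-type cultures). With the sets as a block in limma, STE3 and AGA1 passed (adjusted p = 0.0438 and 0.0276), while the other 8 mating genes did not. With the sets as a block 709 genes passed in all. Sets found in the same data can lower the residual spread by themselves, so these p-values are not independent evidence.

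**Figure D3:**
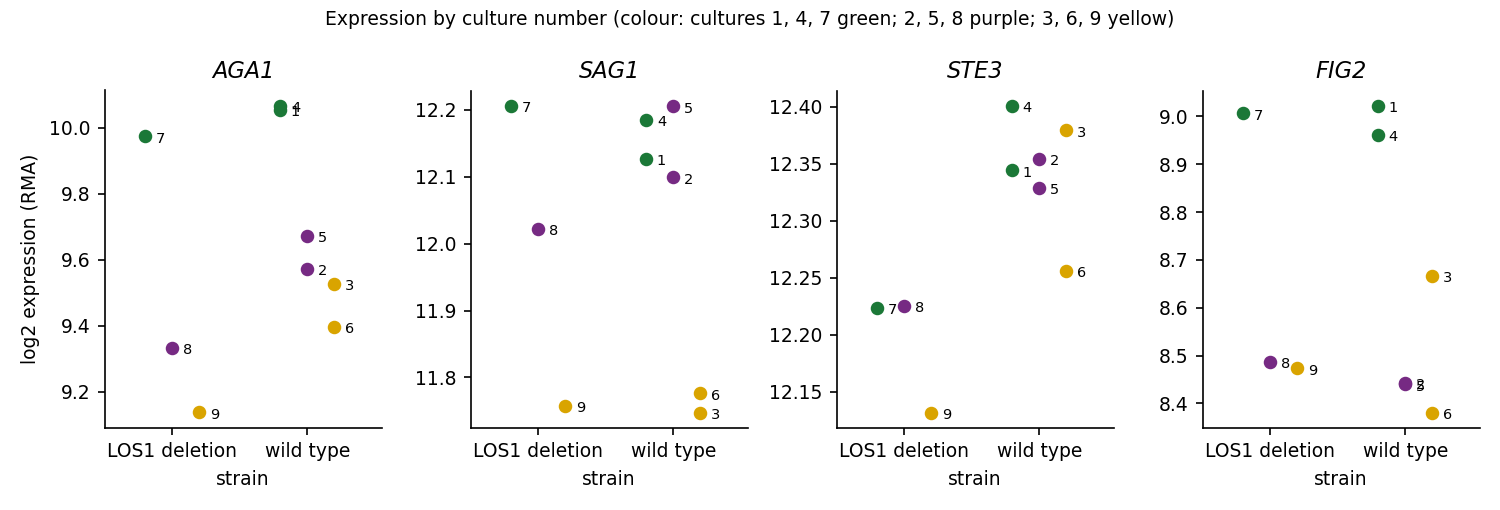
Log2 expression by culture for AGA1, SAG1, STE3 and FIG2, a mating gene outside the 10 that was chosen after its values were seen, with the LOS1 deletion left of wild type and the culture number beside each point. Cultures 1, 4 and 7 (green) are the highest in AGA1 and FIG2, cultures 3, 6 and 9 (yellow) are the lowest in SAG1, and in STE3 the strains separate instead. The vertical axes differ between panels and do not start at 0.

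The G protein subunits had differences close to 0, and none passed. GPA1 (YHR005C), the alpha subunit that holds the pathway off without pheromone, read 11.99, 12.11 and 11.89 in the deletion, against 11.91, 12.01 and 12.08 as the lowest, median and highest wild-type values. The difference was 0.0011 ± 0.06 (SE), with an interval of -0.12 to 0.12 (limma adjusted p = 0.991). The deletion values lay on both sides of the wild-type range.

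STE4 (YOR212W), the beta subunit that carries the signal, read 11.88, 12.02 and 11.94 in the deletion and 11.87, 11.95 and 12.11 as the lowest, median and highest wild-type values. The difference was -0.02 ± 0.06 (SE), with an interval of -0.14 to 0.11 (limma adjusted p = 0.895). STE18 (YJR086W), the gamma subunit that anchors Ste4 at the membrane, read 8.70, 8.99 and 8.68 in the deletion, against 8.47, 8.76 and 8.95 in wild type as lowest, median and highest. Its difference was 0.06 ± 0.10 (SE), with an interval of -0.16 to 0.28 (limma adjusted p = 0.779). The intervals of GPA1 and STE4 are narrow, whereas those of STE18, AGA1 and SAG1 leave room for larger changes in either direction.

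Genes with profiles most like these were found by the Pearson correlation of deviations from the strain mean over the 9 arrays, among 5348 genes above background. For STE3 they were RSM22, HDA1 and SOV1 (r = 0.95, 0.95 and 0.94), and for GPA1 they were ZEO1, GIC2 and FAR8 (r = 0.97, 0.96 and 0.96). These are the highest of many values over few arrays that also share the culture sets. None of these 6 genes passed the test between the strains, with differences from -0.04 to 0.11.

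Of 20 other genes listed for the pheromone signalling cascade and its regulators, 0 passed, against 5.52% of all genes. An unadjusted p under 0.05 was met by 1 of 20, against 22.0% of all genes. The median difference of the 20 was -0.05, and all 20 lay above background on every array. The smallest p belonged to MSG5 (YNL053W), a phosphatase that acts on MAP kinases, at 10.59, 10.62 and 10.67 in the deletion and 10.59 to 10.91 in wild type, a difference of -0.15 (adjusted p = 0.198). STE7 (YDL159W), the MAP kinase kinase, had a difference of -0.10 (adjusted p = 0.233). Of 8 haploid-specific genes outside the 10, 0 passed, against 5.52% of all genes, and their median difference was 0.09. This list shares STE5, FUS3, FAR1 and SST2 with the 20 above, so the 2 counts are not separate. AXL1 (YPR122W), the protease that matures a-factor and marks the bud site in haploids, read 10.02, 10.13 and 10.14 in the deletion and 9.87 to 10.05 in wild type, a difference of 0.16 (adjusted p = 0.0893). RME1 (YGR044C), the haploid repressor of meiosis, had a difference of 0.21 (adjusted p = 0.283), which was 0.09 without culture 8. With the culture sets as a block, AXL1 and RME1 passed (adjusted p = 0.0379 and 0.0155). That fit called 709 of 5449 genes with sets taken from the same data, so these calls are not independent evidence.

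Of 16 pheromone-induced genes of mating and fusion, 0 passed the test, against 5.52% of all genes. No pheromone treatment is listed for these cultures, so the response to pheromone was not tested. An unadjusted p under 0.05 was met by 2 of 16, against 22.0% of all genes. The median difference of the 16 was -0.09, with 12 of 16 below 0, beside 2982 of 5449 genes in all. KAR5 (YMR065W), which acts in the fusion of nuclei, came nearest, at 9.22, 9.37 and 9.25 in the deletion and 9.38 to 9.68 in wild type. Each deletion culture lay below each wild-type culture, culture 8 only just below culture 6, and the difference was -0.27 ± 0.07 (SE, 1.21-fold lower, adjusted p = 0.0505). FUS2 (YMR232W), needed for cell fusion, read 7.87, 7.62 and 7.79 in the deletion and 7.79 to 8.13 in wild type, a difference of -0.22 (adjusted p = 0.134). With the culture sets as a block, 3 of the 16 passed, all lower in the deletion: KAR5, FUS1 (a membrane protein of cell fusion) and PRM4, with differences of -0.27, -0.21 and -0.32 (adjusted p = 0.0078, 0.0258 and 0.0169). That fit called 709 of 5449 genes, 439 of them lower, and its sets were found in the same data. These 3 calls are therefore not independent evidence. FUS1 and PRM4 were chosen after their values were seen.

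Of 11 genes of pheromone maturation and export, STE6 and AXL1 included, 0 passed, against 5.52% of all genes. The median difference of the 11 was -0.08. Of 10 genes silencing the spare mating-type copies, 0 passed and 0 had an unadjusted p under 0.05, against 5.52% and 22.0% of all genes. The median difference of the 10 was 0.0037. The smallest p there belonged to ARD1 and NAT1, partners in the N-terminal acetyltransferase that silencing needs, with differences of 0.09 and -0.11 (adjusted p = 0.241 and 0.309). SIR2 (YDL042C), the silencing deacetylase known for its part in yeast lifespan, was chosen after its values were seen. It read 9.76, 9.90 and 10.03 in the deletion, against 9.81, 10.05 and 10.56 as the lowest, median and highest wild-type values. The difference was -0.24 ± 0.16 (SE, adjusted p = 0.396), and wild-type cultures 3 and 6 stood above the rest.

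**Figure D4:**
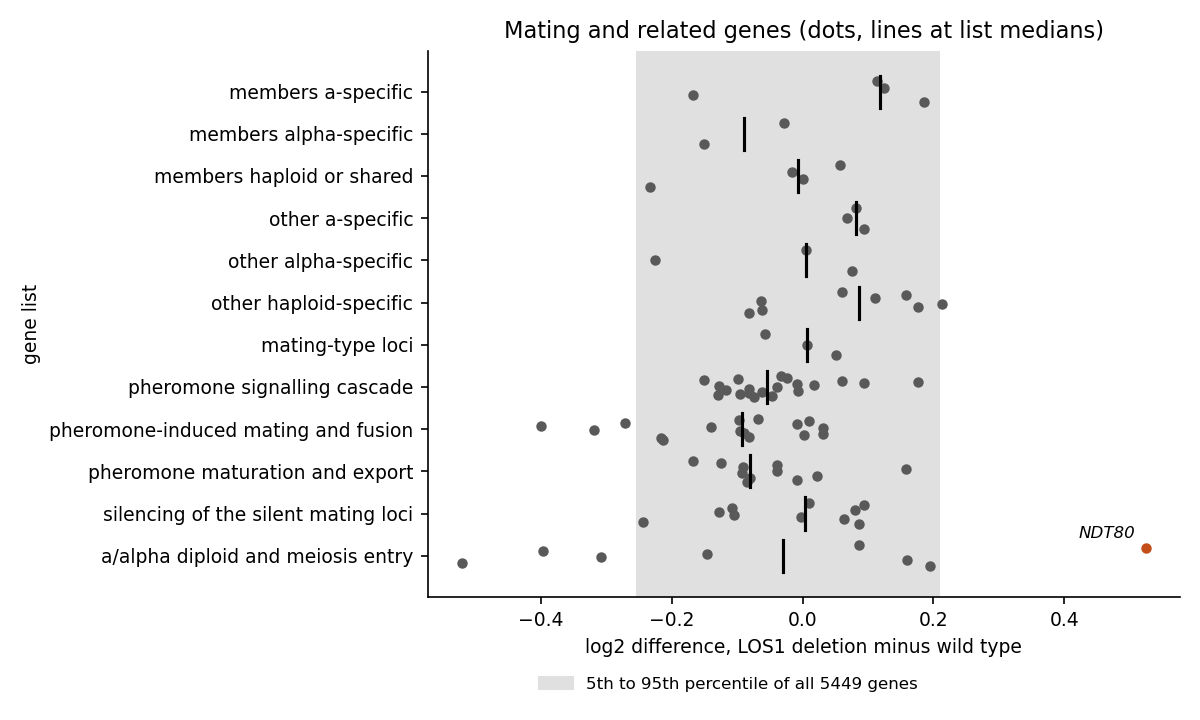
Log2 difference (LOS1 deletion minus wild type) of each measured gene, by list, with a line at the list's median. The grey band spans the 5th to 95th percentile of all 5449 genes, -0.25 to 0.21. NDT80, at 0.52, is the only gene shown that passed the limma test.

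A single gene of those related to mating type, NDT80, passed the test, and it belongs to the meiotic program. It lay 2.36 to 3.18 log2 units above background over the 9 arrays, so by this measure it was not absent from wild type. Of the 8 genes in its list, 7 lay above background on every array. NDT80 (YHR124W), the activator of middle meiotic genes, read 7.79, 7.77 and 7.86 in the deletion, against 7.03, 7.28 and 7.47 as the lowest, median and highest wild-type values. It rose by 0.52 ± 0.08 (SE, 1.44-fold, limma adjusted p = 0.0036), and each deletion culture lay above each wild-type culture. It was the 1 gene called of 8 in its list and of 76 measured related genes outside the 10, where 5.52% of all genes were called. In its list 6 of 8 genes had an unadjusted p under 0.05, against 22.0% of all genes, and 3 of 8 had strains that did not overlap, against 12.6%. The differences of the 8 were split, 4 positive and 4 negative. The list was chosen with earlier results of these data known, so these shares are not independent evidence. The other 7 genes of the list did not pass. Among them, HOP1 (YIL072W), a protein of the meiotic chromosome axis, had a difference of -0.40 (adjusted p = 0.0506). IME4, an mRNA methyltransferase used in a/alpha diploids, was among those with an unadjusted p under 0.05 but lay under background on every array. IME1, the master inducer of meiosis, and IME2, a kinase that acts with it, differed by 0.19 and -0.52 (adjusted p = 0.106 and 0.0932). SPO11, which makes the DNA breaks of meiotic recombination, read 6.26, 6.17 and 6.12 in the deletion and 6.27 to 6.64 in wild type, a difference of -0.31 (adjusted p = 0.0626). IME1, IME2 and IME4 were listed as markers of a/alpha diploids, but they and SPO11 were named here after their values were seen. With the culture sets as a block, HOP1, IME2 and SPO11 passed as lower (adjusted p = 0.022, 0.0228 and 0.0078). That fit called 709 of 5449 genes, 439 of them lower, with sets taken from the same data, so these calls are not independent evidence. The count of 1 of 76 became 2 without culture 3, 4 or 9, 4 without culture 5 and 3 without culture 6, and NDT80 passed in each of these fits.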

How the data were processed

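RNA from 9 cultures was measured on Affymetrix Yeast_2 arrays, 1 array each. The authors deposited log2 expression values per probe set. The submitters' processing notes name RMA, with no version, and name no genome build. RMA compresses values near background, and quantile normalization hides changes shared by most transcripts.

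Of 10928 probe sets, 5498 matched an S. cerevisiae gene by gene identifier (assembly R64). A further 1746 with a name were taken as S. pombe, without a check of species, and served as background. For genes with over 1 probe set (47), the brightest was kept, which left 5449 genes. Precision is limited by the number of arrays.

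Differences were tested with limma 3.58.1 (lmFit, eBayes, 2-sided; R 4.3.3), p-values were adjusted over 5449 genes after Benjamini and Hochberg, and the fit was tested on simulated data. Exact permutation tests used all 84 assignments of cultures and take them as exchangeable. Groups came from the sample descriptions.

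The 10 genes and all lists were chosen with earlier results of these data known. Named were the 10 genes, LOS1 and URA3, every measured gene of the 3 shortest lists, and in each other list every called gene and the 2 with the smallest p. Others are marked where they appear.

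The alternatives were median centring, repeated quantile normalization, leaving out dim genes, averaging probe sets, testing all probe sets, a trended robust prior (statmod 1.5.0), array weights, an adjusted p of 0.01, a 99th-percentile background and leaving out each array. A block of 3 culture sets was added after the data were seen.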

Additional observations from a re-analysis of the deposited data

Results flagged for a closer look

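The wild-type cultures of 29 named genes were screened for a value far from the others by Dixon's test, which chance meets in about 1 in 20 groups. HMRA2 was the only gene met: wild-type culture 5 read 11.87, against at most 11.73 among the rest of its strain, and that gap took up 0.698 of the strain's range. Deletion culture 8 was likewise the highest of its strain, at 11.84. The difference between the strains did not pass with culture 5 in the fit (-0.06, limma adjusted p = 0.653). Without culture 5 it did not pass either (-0.03, limma adjusted p = 0.788).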

How the results depend on the processing

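No mating gene passed in any fit that left out 1 array (0 to 0 of 10), while the count over all genes ranged from 126 to 478 and that of related genes from 1 to 4. With array weights 498 genes passed, among them 1 mating gene, STE3 (-0.16, adjusted p = 0.044), and 5 related genes. With the culture sets as a block the counts were 709, 2 (STE3 and AGA1) and 10 (MF(ALPHA)2, RME1, AXL1, FUS1, PRM4, KAR5, IME2, SPO11, HOP1 and NDT80). The cause of these gains was not tested. At an adjusted p of 0.01, 110 genes passed. Of related genes, 2 passed after repeated quantile normalization, 3 with dim genes left out and 2 with the trended robust prior. The gene gained after repeated quantile normalization was IME4, which lay under background on every array in the deposited values. KAR5 passed in 5 of 17 alternatives, HOP1 in 4, AXL1 in 3 and NDT80 in all 17.

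Differences near 0 changed sign without passing. STE4 was 0.0017 after centring and -0.052 to 0.015 without 1 array. GPA1 was -0.0011 after repeated quantile normalization, -0.019 with array weights and -0.057 to 0.056 without 1 array. HMRA1 was -0.034 and -0.0085 under the same settings and -0.033 to 0.035 without 1 array, and AFB1 was -0.0061 with array weights and -0.026 to 0.035 without 1 array. Without 1 array SAG1 ranged from -0.13 to 0.091, STE18 from -0.043 to 0.12 and MFA2 from -0.021 to 0.13. STE2, STE6, BAR1 and AGA2 kept their sign and passed nowhere. All 10 genes lay above the 95th percentile of the S. pombe probe sets on every array, and 9, without AGA2, above the 99th. The labels pair no cultures across the strains, which share no numbers, so the block of culture sets seen in the data was the only matched fit.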
